A study of Homo sapiens with 6 samples.

Results

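Interferon-stimulated genes and the genes of antigen presentation were examined in HK-2 cells, which derive from the proximal tubule of the human kidney and were immortalised with papillomavirus genes. The set held 39 genes chosen by symbol, and each of the 39 matched exactly 1 of the 29483 genes in the deposited table. Both groups were first exposed to high D-glucose (HG, 25 mM) for 7 days and then stayed in HG for 1 further day. During that day the case group (3 replicates, HGTEPP1 to HGTEPP3) was given 10 μM TEPP-46, a small molecule that holds pyruvate kinase M2 in its active tetramer, and the control group (3 replicates, HG1 to HG3) was not. The libraries include no comparison group kept in low glucose or given interferon, so the comparison is that of TEPP-46 in cells already exposed to HG. All 6 libraries came from 1 cell line, and their p-values measure only the spread between these replicates.

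Interferons are secreted proteins that cells release when they sense viral nucleic acid. RIG-I-like receptors detect viral RNA in the cytosol and switch on the factors IRF3 and IRF7, which drive interferon genes. Type I interferon binds the receptor chains IFNAR1 and IFNAR2, whose kinases JAK1 and TYK2 phosphorylate STAT2. Together with IRF9 this factor takes part in the complex that binds the interferon-stimulated response element (ISRE) in the promoters of antiviral genes. Interferon gamma acts at the gamma-activated site (GAS), and IRF1 and NLRC5 then raise the genes of class I antigen presentation, in which the TAP transporter loads peptides on HLA molecules paired with B2M.

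The response elements were located first, because they are what most of these genes have in common beyond the choice by symbol. RefSeq promoter sequences (GRCh38.p14) were found for 31 of the 39 genes, and the 250 bases before each start were searched on both strands. The ISRE core was taken as GAAA, any 2 bases, and GAAA, and it was found in 20 (64.5%) of these promoters. It was found in 839 (3.07%) of the 27305 promoters of all genes and in 212 (2.17%) of the 9766 promoters of tested genes. The GAS was taken as TTC, any 3 bases, and GAA, and it was found in 9 (29.0%) of the 31 promoters. Of the 27305 promoters 1850 (6.8%) held it, and of the 9766 promoters 536 (5.49%). Matches of both motifs shared bases in 2 promoters, those of *BST2* and *IFI27*. The genes of the set are known as interferon targets, so these shares describe the set and do not test it. The sequences below show the motif in capitals and are written in the direction of transcription, the first 3 for genes that changed after TEPP-46 and the rest as examples from the antiviral, other interferon-stimulated, and antigen presentation genes. Where a longer stretch would have touched an annotated exon, only the match nearest to the start is shown, with at most 10 bases on either side. These shorter stretches were not checked again and can still touch an exon. The starts are those of RefSeq, and the exons are those of GENCODE, whose gene starts can lie further upstream. Where the capitals read TTTC, 2 bases, and TTTC, the ISRE lies on the opposite strand.
IRF1 (GAS, chr5:132490864-132490922, minus strand): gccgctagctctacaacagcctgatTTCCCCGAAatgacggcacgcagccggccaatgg
ISG20 (ISRE, chr15:88638937-88638966, plus strand): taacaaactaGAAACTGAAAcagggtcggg
OAS3 (ISRE, chr12:112938452-112938473, plus strand): agccgggcggGAAAACGAAAcc
ISG15 (ISRE, chr1:1013359-1013424, plus strand): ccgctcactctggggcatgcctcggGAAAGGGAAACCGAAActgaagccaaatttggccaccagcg
IFITM3 (ISRE, chr11:320861-320937, minus strand): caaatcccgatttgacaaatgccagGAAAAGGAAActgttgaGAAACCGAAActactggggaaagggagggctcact
IFIT1 (ISRE, chr10:89392510-89392539, plus strand): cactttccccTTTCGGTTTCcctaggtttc
SAMD9 (ISRE, chr7:93118081-93118140, minus strand): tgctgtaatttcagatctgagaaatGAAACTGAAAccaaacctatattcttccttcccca
TAP1 (ISRE, chr6:32853813-32853842, minus strand): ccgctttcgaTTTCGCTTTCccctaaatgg
B2M (ISRE, chr15:44711369-44711398, plus strand): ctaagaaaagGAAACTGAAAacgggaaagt

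Expression was read from the deposited FPKM values, in which the reads of a gene are scaled for its length and for the depth of the library. Whole reads could be recovered from these values, and the total reads on genes behind them were 18634891, 17924033, and 17378710 in control replicates 1, 2, and 3 and 16711934, 16047243, and 15363254 in case replicates 1, 2, and 3. Every case library thus had fewer reads on genes than every control library. Transcripts of the mitochondrial genome took 3.32% to 3.37% of the reads under HG alone and 4.27% to 4.65% after TEPP-46, and the part of either difference in the results below was not tested. The first principal component of all tested genes held 37.2% of the variance. Scores on it ran from -27.8 to -22.9 under HG alone, while case replicates 1, 2, and 3 scored 30.5, 9.55, and 34.4. Case replicate 2 therefore stood nearer to the control group than the other case replicates, and the counts below are also given without it.

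The label of the cells was checked with marker genes. The epithelial genes *KRT19*, *KRT8*, *KRT18*, and *EPCAM* had mean FPKM values of 346, 308, 190, and 13.6. The genes that define the mature proximal tubule were near 0, with mean FPKM values of 0.0653 for *AQP1*, 0.0748 for *ANPEP*, 0.00114 for *LRP2*, 0.0236 for *CUBN*, and 0.0275 for *SLC34A1*, and the renal factor *PAX8* stood at 0.114. The cells were thus epithelial by these markers, and the RNA did not show the mature tubular ones. Of the 10 leukocyte markers, 7 had a row in the table and none reached a mean FPKM of 1. The most abundant of them was *CD14*, with a mean FPKM of 0.535. Summed over the 7 genes, the leukocyte markers had an FPKM of 0.781 to 1.17 under HG alone and of 0.356 to 0.507 after TEPP-46. *CD14* itself fell, from a mean FPKM of 0.806 to 0.264 on 7 to 31 reads per library (adjusted p = 0.0384 in limma). This call was lost without control replicate 2 (adjusted p = 0.112 in limma) and without case replicate 3 (0.0895), the gene stayed below the minimum level without control replicate 1 or 3, and its part in the results below was not tested. The 39 interferon and antigen presentation genes summed to 684 to 716 under HG alone and to 693 to 758 after TEPP-46. The fibroblast markers, of which 4 of 7 had a row and *COL1A1* was the most abundant, summed to 0.366 to 0.454 under HG alone and to 0.173 to 0.298 after TEPP-46, again without overlap. The 5 endothelial markers summed to 0.0380 to 0.101 over all libraries, with overlap. Among the epithelial genes, *KRT8* was lower in every case library (log2 fold change -0.27) but did not pass the threshold in limma. The part of these differences in the results below was not tested. In a bulk RNA sample, fewer cells of a type and less RNA per cell cannot be told apart.

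**Figure D1:**
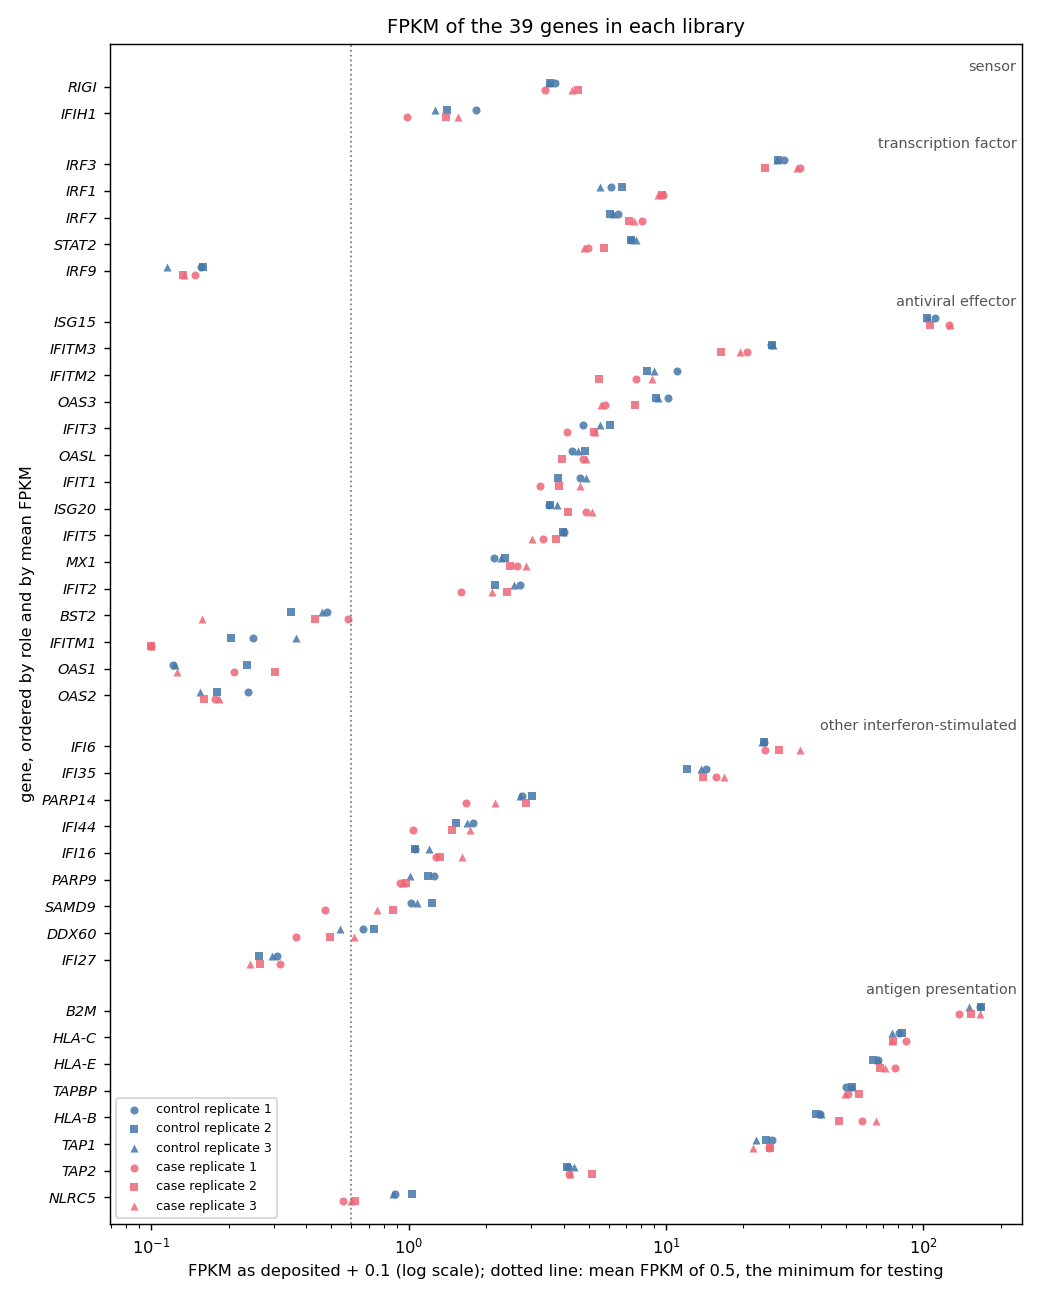
FPKM of each of the 39 genes (vertical axis, by role) in each library, as FPKM + 0.1 on a log scale (horizontal axis). Circles, squares, and triangles are replicates 1, 2, and 3 of the control (blue) and case (red) groups. B2M (mean 157) and ISG15 (mean 113) lie at the right, and the 7 genes with a mean under 0.5, among them IRF9 and IFITM1, have their means left of the dotted line.

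The plot of levels by library shows that the set was unevenly expressed. *B2M*, the invariant light chain of HLA class I, had the highest level with a mean FPKM of 157 over the 6 libraries, followed by *ISG15*, a ubiquitin-like protein that is joined to other proteins, with 113. The heavy chains *HLA-C*, *HLA-E*, and *HLA-B* had means of 79.2, 68.9, and 47.9. At the other end, 7 genes had a mean FPKM under 0.5 and were not tested, namely *IRF9*, *IFITM1*, *OAS1*, *OAS2*, *BST2*, *IFI27*, and *DDX60*. The remaining 32 genes were covered by 32 to 18779 reads per library.

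The genes without a test had a low FPKM, and most were covered by few reads. *IRF9*, the DNA-binding partner of STAT2, had 4, 4, and 1 reads under HG alone and 3, 2, and 2 after TEPP-46. These counts place all 6 libraries at an FPKM between 0.0152 and 0.0588. In the annotation used here (GENCODE release 44) other genes share 27.2% of the exon bases of *IRF9*, and how reads on shared bases were counted is not known. *IFITM1*, a membrane protein that restricts viral entry, had 3, 2, and 5 reads under HG alone and 0 in each case replicate. Every case library was thus lower than every control library. In a single library a count of 0 allows up to 3 reads. That is an FPKM of up to 0.166, 0.173, and 0.181 in case replicates 1, 2, and 3. Each of these limits lies within the range of the control values (0.103 to 0.266). They hold for each library on its own, and the difference between the groups was not tested. Other genes share 31.6% of the exon bases of *IFITM1*. On the opposite strand ENSG00000254910 had an FPKM of 5.89, 3.42, and 2.94 under HG alone and 3.82, 4.61, and 4.32 after TEPP-46. *OAS1*, an enzyme that makes the messenger 2-5A on double-stranded RNA, had 2, 12, and 2 reads under HG alone and 9, 16, and 2 after TEPP-46. Its relative *OAS2* had 16, 9, and 6 reads against 8, 6, and 8. The groups overlapped for both OAS genes. *BST2*, which tethers budding virus particles, had 1 to 9 reads per library, *IFI27* had 9 to 16, and *DDX60*, a helicase linked to RNA sensing, had 30 to 77.

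The effect of TEPP-46 was then compared across the tested genes with limma. Differentially expressed (DE) genes were those with an adjusted p of at most 0.05. Expression rose in 3 of the 32 genes, namely *IRF1*, *HLA-B*, and *ISG20*, and fell in 2, namely *STAT2* and *OAS3*. The other 27 did not pass this threshold. Over all 13599 tested genes, 7.34% were upregulated and 5.84% were downregulated, 13.2% in both directions, so the shares of 9.38% and 6.25% in the set stood close to those of the whole table. The median log2 fold change of the 32 genes was 0.06, against -0.00 over all tested genes, with 17 genes above 0 and 15 below. After scaling between libraries, 16 of the 32 genes had no overlap between the groups, 9 higher and 7 lower in the case group. Of all tested genes 19.5% were higher and 20.4% were lower without overlap, 39.9% in both directions. At an unadjusted p under 0.05, 10 of the 32 genes were higher and 5 were lower, beside 16.8% and 16.2% of all tested genes. The share of higher genes at this cutoff thus stood above that of all tested genes, and this difference was not tested. The set thus did not move in 1 direction, and the transcription factors and the antiviral effectors each held 1 gene that rose and 1 that fell.

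**Figure D2:**
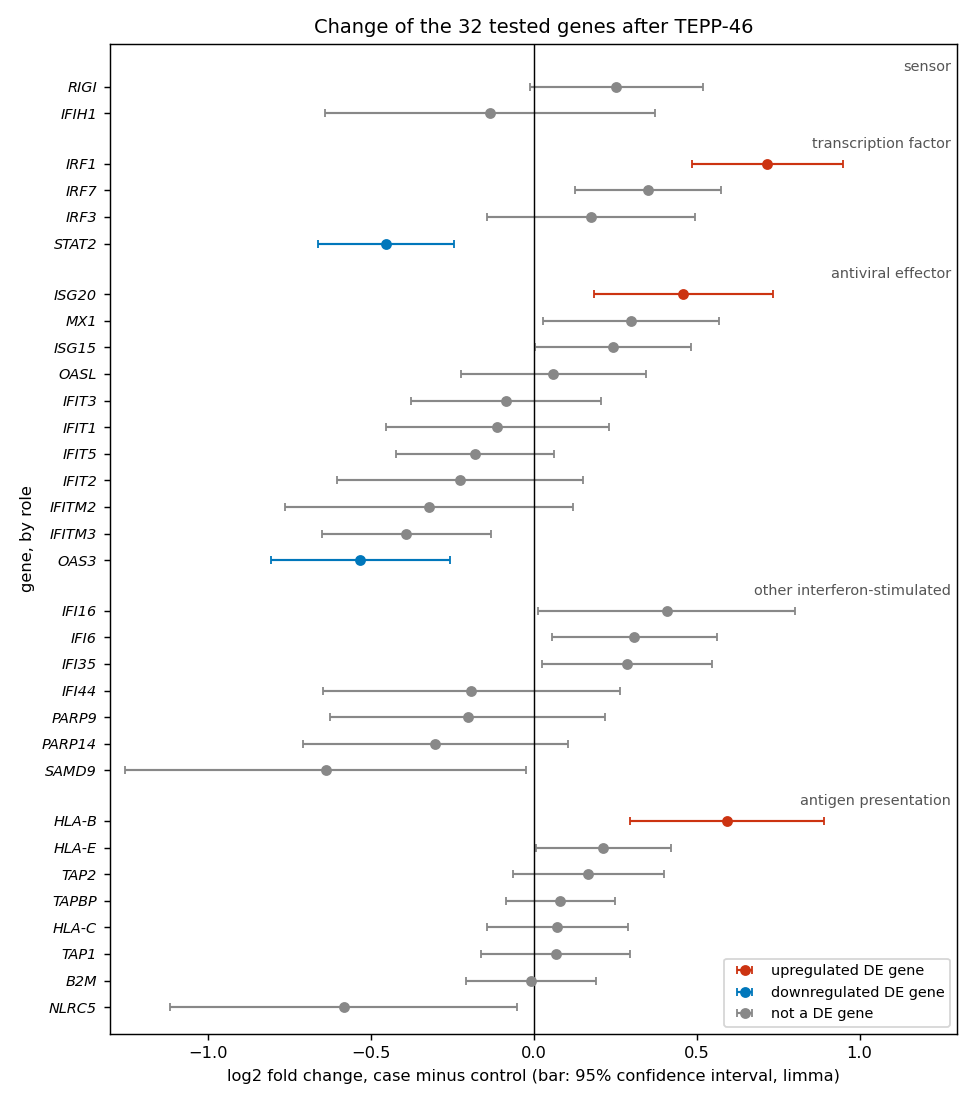
Log2 fold change of the 32 tested genes, case minus control (horizontal axis), by role (vertical axis), where bars are 95% confidence intervals from limma. IRF1, HLA-B, and ISG20 (red) lie above 0 and STAT2 and OAS3 (blue) below 0, while the 27 genes in grey did not pass the threshold.

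Among the transcription factors, *IRF1* and *STAT2* changed in opposite directions. *IRF1* (ENSG00000125347, chromosome 5, from 132440440 to 132508719) encodes a factor that activates interferon and class I genes and is itself induced by interferon gamma. Its FPKM was 6.03, 6.65, and 5.45 in control replicates 1, 2, and 3 and 9.65, 9.53, and 9.19 in case replicates 1, 2, and 3. All 3 case values lay above all control values and close to each other. The log2 fold change of *IRF1* was 0.72 (SE 0.10, adjusted p = 0.0102 in limma), a 1.64-fold rise with a 95% confidence interval of 1.40 to 1.93. Of the exon bases of *IRF1*, 22.9% are shared with other genes on the opposite strand, among them *IRF1-AS1*. The FPKM of *IRF1-AS1* was 0.320, 0.286, and 0.239 under HG alone and 0.398, 0.345, and 0.397 after TEPP-46, higher in every case library. Since the strandedness of the libraries is not given in the sources used here, reads on the bases shared by *IRF1* and *IRF1-AS1* cannot be told apart.

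*STAT2* (ENSG00000170581, chromosome 12, from 56341597 to 56360203) encodes the signal transducer of type I interferon that IRF9 joins. It had an FPKM of 7.23, 7.22, and 7.54 under HG alone and 4.86, 5.63, and 4.72 after TEPP-46. The case values were all lower, with replicate 2 nearest to the controls. The fall was by 0.45 on the log2 scale (SE 0.09, adjusted p = 0.0223 in limma), to 0.731-fold of the control level (95% confidence interval 0.633 to 0.845). *IRF7*, the factor that amplifies type I interferon, had an FPKM of 6.43, 5.94, and 6.13 under HG alone and 7.97, 7.09, and 7.41 after TEPP-46. These values did not overlap, and the gene stood just outside the threshold (log2 fold change 0.35, SE 0.10, adjusted p = 0.0513 in limma), while *ISG20* stood just inside it at 0.0428. *IRF3*, the factor activated first on sensing of viral nucleic acid, had an FPKM of 28.5, 27.2, and 27.0 against 33.2, 24.2, and 32.1. Case replicate 2 was the lowest of all 6 libraries and the other case replicates were the highest, and the log2 fold change of 0.18 had an interval from -0.14 to 0.49. On the opposite strand *BCL2L12* shares 19.3% of the exon bases of *IRF3* and stood at an FPKM of 29.3 to 29.6 under HG alone and 36.6, 31.3, and 35.8 after TEPP-46.

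Neither sensor of viral RNA passed the threshold in limma, and 0 of them did so in voom, the limma test on whole reads, or at an unadjusted p under 0.05. *RIGI*, which recognises short RNA with a 5′ triphosphate, had an FPKM of 3.61, 3.45, and 3.40 under HG alone and 3.30, 4.45, and 4.22 after TEPP-46. Case replicate 1 was the lowest library and the other case replicates were the highest, so the groups overlapped (log2 fold change 0.25, adjusted p = 0.167 in limma). Without case replicate 1, *RIGI* was upregulated (adjusted p = 0.0356 in limma). Of its exon bases, 43.2% are shared with another annotated gene. *IFIH1*, which encodes the sensor of long double-stranded RNA MDA5, had an FPKM of 1.17 to 1.73 under HG alone and of 0.885 to 1.45 after TEPP-46 on 67 to 146 reads, and its interval, from -0.64 to 0.37, was wide.

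Of the 11 tested antiviral effectors, *ISG20* rose and *OAS3* fell. *ISG20* (ENSG00000172183, chromosome 15, from 88635670 to 88656483) encodes an exonuclease that degrades viral RNA. The FPKM of *ISG20* was 3.43, 3.43, and 3.66 under HG alone and 4.77, 4.05, and 5.06 after TEPP-46. Every case value was higher, and replicate 2 was again the nearest to the controls. The log2 fold change was 0.46 (SE 0.12, adjusted p = 0.0428 in limma), a 1.38-fold rise (95% confidence interval 1.14 to 1.66). *OAS3* (ENSG00000111331, chromosome 12, from 112938051 to 112976460) encodes the OAS enzyme with the greatest affinity for long double-stranded RNA, whose product activates RNase L. Its FPKM was 10.1, 9.02, and 9.18 under HG alone and 5.67, 7.47, and 5.47 after TEPP-46. The 2 groups were separate, and *OAS3* fell by 0.53 on the log2 scale (SE 0.12, adjusted p = 0.0294 in limma). The case level was 0.692-fold of the control level (95% confidence interval 0.572 to 0.837).

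The IFITM proteins block the fusion of virus and cell membranes. *IFITM3* had an FPKM of 25.6, 25.8, and 25.9 under HG alone, which were nearly equal, and of 20.5, 16.3, and 19.3 after TEPP-46. All case values were lower and more spread, and at a log2 fold change of -0.39 (SE 0.11, adjusted p = 0.0559 in limma) the gene stood outside the threshold. *IFITM2* had an FPKM of 10.9, 8.35, and 8.88 against 7.52, 5.37, and 8.69, with overlap and an adjusted p of 0.279 in limma. Reads of the IFITM genes could be confused with each other, since their sequences are alike. Case replicate 2 was the lowest library for both.

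The IFIT proteins bind foreign RNA and are among the most strongly induced products of type I interferon in many cell types. None of the 4 IFIT genes passed the threshold in limma or voom, and 0 of them had an unadjusted p under 0.05. The log2 fold change was -0.11 for *IFIT1* (95% confidence interval -0.45 to 0.23), -0.23 for *IFIT2* (-0.60 to 0.15), -0.08 for *IFIT3* (-0.38 to 0.21), and -0.18 for *IFIT5* (-0.42 to 0.06). These intervals contain changes of up to 0.60 in the lower direction and at most 0.23 in the upper. *IFIT1* had an FPKM of 4.51, 3.71, and 4.78 under HG alone and 3.15, 3.76, and 4.54 after TEPP-46, values that were mixed between the groups. *IFIT5* had an FPKM of 3.90, 3.89, and 3.88 against 3.23, 3.63, and 2.92, lower in every case library (adjusted p = 0.27 in limma). *ISG15* had an FPKM of 111, 104, and 104 against 126, 106, and 127, where case replicate 2 lay among the control values (adjusted p = 0.146 in limma). *MX1*, a dynamin-like GTPase that traps viral ribonucleoproteins, ranged from 2.06 to 2.27 under HG alone and from 2.37 to 2.75 after TEPP-46, without overlap (adjusted p = 0.123 in limma). *OASL*, which enhances RIG-I signaling, had a log2 fold change of 0.06 with an interval from -0.22 to 0.34.

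None of the 7 other tested interferon-stimulated genes passed the threshold in limma, 3 with a log2 fold change above 0 and 4 below. At an unadjusted p under 0.05, 3 were higher and 1 was lower, and voom called *SAMD9* downregulated. *SAMD9*, a restriction factor of poxviruses, had the lowest value of the whole set at -0.64 (SE 0.27, adjusted p = 0.14 in limma). Its FPKM was 0.924, 1.13, and 0.974 under HG alone and 0.375, 0.773, and 0.655 after TEPP-46 on 43 to 139 reads, so that the groups were separate but the case replicates were far apart. *IFI16*, a sensor of DNA, had an FPKM of 0.963, 0.959, and 1.10 against 1.18, 1.22, and 1.51 and a log2 fold change of 0.41 (adjusted p = 0.14 in limma). *IFI6*, a small protein of the endoplasmic reticulum and mitochondria, had an FPKM of 24.0, 23.9, and 23.5 under HG alone and 24.1, 27.4, and 33.2 after TEPP-46. The case values covered a wide range that began at the control level (adjusted p = 0.0957 in limma). *IFI35* had a log2 fold change of 0.29, *IFI44* one of -0.19, and the ADP-ribosyltransferase genes *PARP9* and *PARP14* had values of -0.20 and -0.30. The values of *PARP14* overlapped because case replicate 2, at an FPKM of 2.77, lay within the control range of 2.62 to 2.92, while case replicates 1 and 3 stood at 1.57 and 2.06.

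In antigen presentation, *HLA-B* rose and the other 7 genes did not pass the threshold. *HLA-B* (ENSG00000234745, chromosome 6, from 31353872 to 31367067) encodes a class I heavy chain. Its FPKM was 39.5, 38.1, and 40.0 under HG alone and 57.4, 46.9, and 65.6 after TEPP-46. The control values were tight and the case values were all higher but spread. The log2 fold change of *HLA-B* was 0.59 (SE 0.13, adjusted p = 0.0267 in limma), a 1.51-fold rise with a 95% confidence interval of 1.23 to 1.85. *HLA-E*, the ligand of the NKG2 receptors of natural killer cells, had an FPKM of 66.3, 63.6, and 66.8 against 77.5, 67.9, and 71.0, without overlap (log2 fold change 0.21, adjusted p = 0.142 in limma). For *HLA-C* the FPKM was 80.4, 82.4, and 75.1 under HG alone and 85.8, 75.9, and 75.7 after TEPP-46, and the interval of its log2 fold change ran from -0.14 to 0.29. Class I genes are highly similar and differ between individuals, so reads could be shared between them or missed on the reference, and 47.3% of the exon bases of *HLA-B* are shared with other annotated genes.

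The partners of the heavy chains did not pass the threshold in limma. *B2M* had an FPKM of 166, 167, and 150 under HG alone and 138, 153, and 166 after TEPP-46. The values were mixed between the groups, with a log2 fold change of -0.01 and an interval from -0.21 to 0.19 on 14005 to 18779 reads. The peptide transporter genes *TAP1* and *TAP2* had log2 fold changes of 0.07 (-0.16 to 0.30) and 0.17 (-0.06 to 0.40), and the loading chaperone *TAPBP* had one of 0.08 (-0.09 to 0.25). All 4 intervals contained 0, although *TAP2* was higher in every case library after scaling between libraries. *NLRC5*, the transactivator of class I genes, had an FPKM of 0.789, 0.928, and 0.767 under HG alone and 0.454, 0.518, and 0.499 after TEPP-46. The case values were close to each other and all lower, yet on 94 to 206 reads its log2 fold change of -0.58 had a SE of 0.23 (adjusted p = 0.125 in limma). By voom *NLRC5* was called downregulated.

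**Figure D3:**
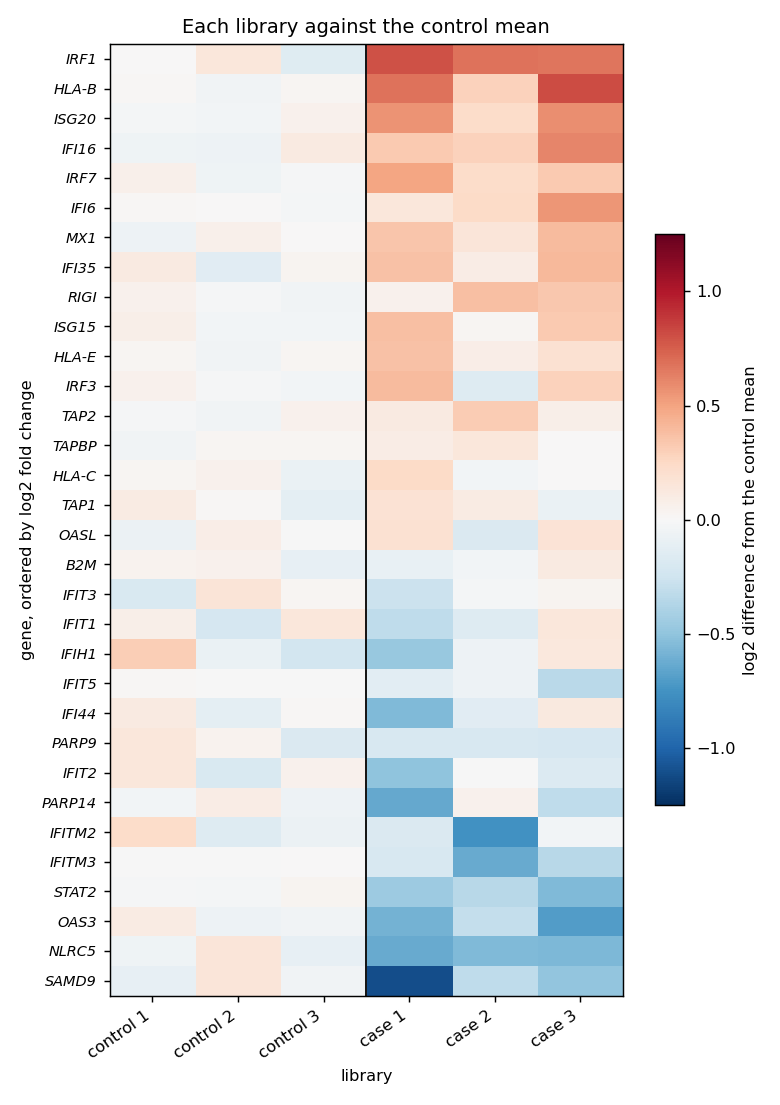
Log2 difference of each library from the control mean (color) for the 32 tested genes, ordered by log2 fold change (vertical axis), in the 6 libraries (horizontal axis). HLA-B stood at 0.68, 0.29, and 0.81 and OAS3 at -0.59, -0.30, and -0.70 in case replicates 1, 2, and 3, so that case replicate 2 was paler for both.

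The case replicates did not carry the changes equally, as the map of differences from the control mean shows. Relative to that mean, *IRF1* stood at 0.80, 0.68, and 0.67 in case replicates 1, 2, and 3 on the log2 scale, nearly level. By contrast, *ISG20* stood at 0.56, 0.23, and 0.59, and *STAT2* at -0.46, -0.34, and -0.56. The median difference of the 32 genes was 0.07, -0.01, and 0.12 in the 3 case replicates, and between -0.02 and 0.02 in the control replicates. Without case replicate 2, 9 of the 32 genes (28.1%) were upregulated and 4 (12.5%) were downregulated, where 13.4% and 12.4% of all tested genes were. This difference in the upregulated share was not tested. The 5 genes called with all libraries were among them, and *IRF7*, *IRF3*, *ISG15*, *MX1*, *IFI35*, and *HLA-E* joined the upregulated and *IFITM3* and *PARP14* the downregulated ones.

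**Figure D4:**
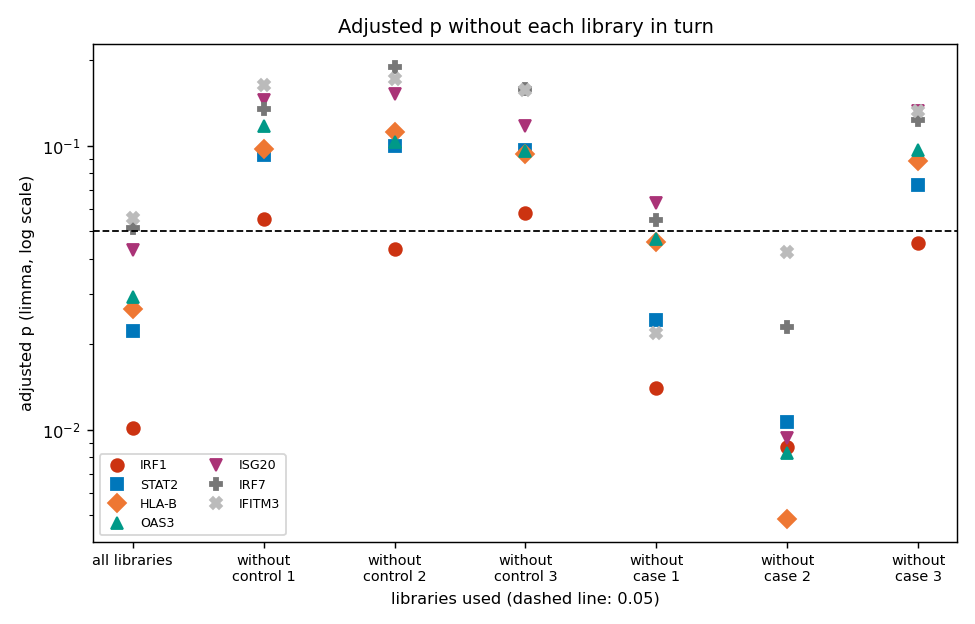
Adjusted p in limma (vertical axis, log scale) of the 5 called genes and of IRF7 and IFITM3 with all libraries and without each library in turn (horizontal axis). IRF1 stays between 0.0087 and 0.0582, and without any one control replicate the other genes lie above the dashed line at 0.05.

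Most calls were lost when a control library was left out, in the set as in all tested genes. In limma the set then held 0, 1, and 0 upregulated genes without control replicate 1, 2, and 3 and no downregulated gene, while 0.771%, 0.507%, and 0.64% of all tested genes were DE genes. At an unadjusted p under 0.05, 5, 4, and 4 genes of the set were higher and 3 were lower in each of these fits, beside 23.6%, 22.3%, and 24.6% of all tested genes in both directions. The gene that stayed without control replicate 2 was *IRF1*, whose adjusted p in limma was 0.0554, 0.0432, and 0.0582 in these 3 fits. For the other 4, the adjusted p in limma without any one control replicate was 0.093 to 0.1 for *STAT2*, 0.094 to 0.112 for *HLA-B*, 0.0961 to 0.118 for *OAS3*, and 0.118 to 0.153 for *ISG20*. These 4 were also lost without case replicate 3, at 0.0728, 0.0887, 0.0964, and 0.133, and *ISG20* was lost without case replicate 1, at 0.0632. Without case replicate 3, *IRF1* was the only called gene of the set (adjusted p = 0.0457 in limma), and 1.41% of all tested genes were DE genes. Its log2 fold change stayed between 0.64 and 0.78 when any 1 library was left out, that of *HLA-B* between 0.49 and 0.75, that of *ISG20* between 0.40 and 0.57, that of *STAT2* between -0.51 and -0.40, and that of *OAS3* between -0.65 and -0.44. By voom, which called 9.57% of all tested genes upregulated and 11.1% downregulated, the 5 genes were called in the same direction, and *IFITM3*, *NLRC5*, and *SAMD9* were downregulated besides.

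The steps around these genes were followed with a list of 107 further genes of interferon signaling and antigen presentation, of which 100 had a row in the table and 74 were tested. Among them 5 were upregulated and 2 were downregulated, beside the 7.34% and 5.84% of all tested genes, and their median log2 fold change was 0.04. No interferon gene reached the minimum level. *IFNB1*, the first type I interferon made by epithelial cells, had 0, 0, and 0 reads under HG alone and 1, 1, and 0 after TEPP-46. *IFNL1*, a type III interferon, had 0, 0, and 0 against 2, 1, and 0 reads, *IFNA1* had at most 2 reads, and *IFNE*, an epithelial type I interferon, had 9, 6, and 3 against 2, 5, and 0 reads. Transcripts of the interferon ligands in the table were thus at or near the limit of detection in both groups.

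The receptor chains were all expressed. *IL10RB*, the chain shared by type III interferon and the interleukin-10 family, had an FPKM of 3.35, 3.57, and 3.10 under HG alone and 4.97, 4.33, and 5.37 after TEPP-46, and it rose (log2 fold change 0.61, SE 0.12, adjusted p = 0.0221 in limma). Its partner *IFNLR1* had an FPKM of 1.40 to 1.58 under HG alone and of 0.790, 1.11, and 0.648 after TEPP-46 and stood outside the threshold on the lower side (log2 fold change -0.70, adjusted p = 0.0587 in limma). The 2 chains of the type III receptor thus had values in opposite directions. *IFNAR1* and *IFNAR2*, the type I receptor, had log2 fold changes of -0.21 and -0.06, and *IFNGR1* and *IFNGR2*, the receptor of interferon gamma, had 0.30 and 0.30, none past the threshold. The kinase gene *JAK1* fell, with an FPKM of 13.6, 13.9, and 13.6 under HG alone and 8.82, 11.3, and 9.88 after TEPP-46 (log2 fold change -0.38, SE 0.09, adjusted p = 0.0321 in limma).

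The remaining called genes of the list served sensing, restraint, and effector steps. *CGAS*, the sensor of cytosolic DNA, had an FPKM of 8.49, 8.61, and 8.60 against 10.3, 11.1, and 11.3 and rose by 0.42 on the log2 scale (adjusted p = 0.0175 in limma). *IRF2BP2*, a corepressor of IRF2, rose by 0.56, *NMI*, a binding partner of STAT proteins, rose by 0.46, and *PSME1*, a subunit of the activator of the immunoproteasome, rose by 0.43. Each of these was separate between the groups. *ZC3HAV1*, a zinc finger protein that directs the decay of viral RNA, had an FPKM of 9.42, 10.4, and 9.62 under HG alone and 4.45, 6.39, and 5.03 after TEPP-46, and it fell by 0.82 on the log2 scale (SE 0.12, adjusted p = 0.0121 in limma). Of the 18 tested genes of antigen presentation in the list, 13 had a log2 fold change above 0 and *PSME1* alone was called, and of the 27 tested interferon-stimulated genes 12 lay above 0 and 15 below. Each of the 7 called genes of the list was called in 2 of the 6 fits that left out 1 library. Without case replicate 2, 8 were upregulated and 11 were downregulated, beside the 13.4% and 12.4% of all tested genes.

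**Figure D5:**
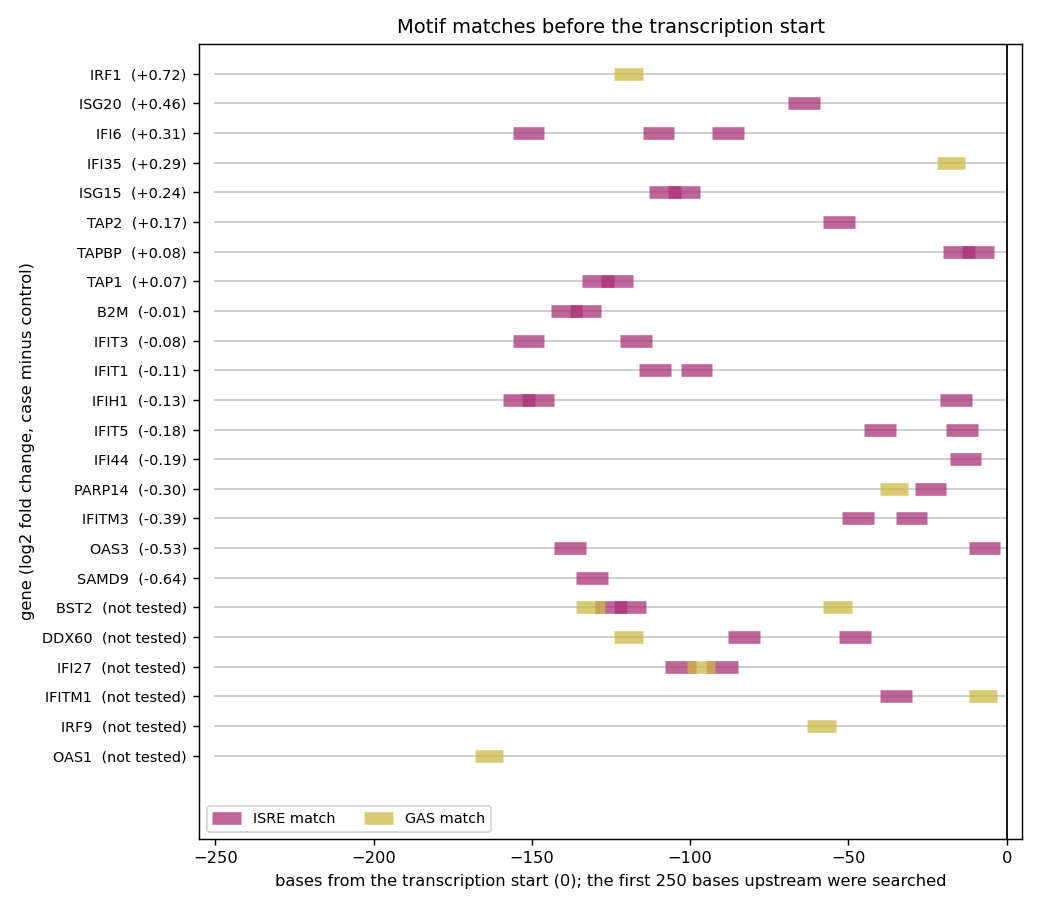
Matches of the ISRE (purple) and GAS (yellow) letters in the 250 bases before the start (horizontal axis, bases from the start) for the genes with a match (vertical axis), ordered by log2 fold change. Among the tested genes with an ISRE match, log2 fold changes ran from 0.46 (ISG20) to -0.64 (SAMD9), and IRF1 (0.72) holds a GAS match only.

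Genes with the ISRE letters did not share a direction, as the plot of motif positions shows. Of the 16 tested genes with a match, *ISG20* rose and *OAS3* fell, 6 had a log2 fold change above 0 and 10 below, and their median was -0.10. Of the 9 tested genes whose promoter was read and held no match, *IRF1* and *HLA-B* rose and *STAT2* fell, 7 had a log2 fold change above 0 and 2 below, and the median was 0.29. The difference between these groups was not tested. The GAS letters were found in the promoters of 3 tested genes, *IRF1* (log2 fold change 0.72), *IFI35* (0.29), and *PARP14* (-0.30). In the sequences given above, the ISRE letters begin at position -69 from the start in *ISG20*, which rose, and at position -12 in *OAS3*, which fell. The same letters begin at positions -113 and -107 in *ISG15*, where both matches share bases, and at -52 and -35 in *IFITM3*, and neither gene passed the threshold. The absence of a match says only that these letters are not in this window.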

How the data were processed

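RNA-seq of HK-2 cells was deposited as 1 table of FPKM values for 29483 Ensembl genes in 6 libraries. Per the submitters' processing notes, the authors aligned reads with HISAT2 (2.1.0) to GRCh38.p13 and counted them with HTSeq (0.6.0) before computing FPKM. The annotation version, RNA selection, and strandedness are not given in the sources used here.

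Because FPKM values of whole reads move in steps, the reads behind them were recovered (within 0.1 of a whole number). For all but 3 of the 27922 genes above 0, the gene length behind the values was also a whole number. The recovered reads of a library summed to 99.8% of its total. Genes were tested where the mean FPKM reached 0.5 (13599 genes). Libraries were scaled by the median of ratios over these genes and analysed as log2(FPKM + 0.1) with limma (3.58.1, R 4.3.3), with an intensity trend. Fold changes are on this scale, which understates the change of low genes. DE genes had a Benjamini-Hochberg adjusted p of at most 0.05 over all tested genes. With 3 replicates against 3, an exact permutation test cannot go below p = 0.10, so none was used. Whole reads were also tested with voom.

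Gene symbols were matched for 29063 IDs. Positions are from GENCODE release 44 (GRCh38) and promoters from RefSeq (GRCh38.p14), which held 31 of the 39 genes and not *IRF3*, *IRF7*, *IFIT2*, *IFITM2*, *OAS2*, *OASL*, *NLRC5*, and *HLA-E*. The genes and lists were chosen with earlier results of these data known. All 39 genes are named, and of the further list the DE genes and the ligands and receptors. A few items that this rule or the lists name are not reported here. Scripts were tested on simulated data. Alternatives were another pseudocount (1 or 0.01), no minimum FPKM or a minimum of 1, unscaled FPKM, TPM, no intensity trend, a replicate block, voom, each library left out, and, chosen after seeing the data, factors over all genes above 0.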

Additional observations from a re-analysis of the deposited data

How the results depend on the processing

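Of the 5 called genes, *IRF1* and *STAT2* kept their call under every alternative that used all libraries, except that *STAT2* lost it with no minimum FPKM. With no minimum, 524 genes were DE genes, and the set held 1 upregulated (*IRF1*) and 0 downregulated genes with a median of -0.013, while 1 gene of the further list was downregulated. With factors over all genes, *IRF7* was called. With a minimum of 1, 1088 of 11663 tested genes were upregulated and 946 were downregulated. *IRF7* and *IFITM3* were then called, and 5 genes of the further list were downregulated. Unscaled FPKM moved the median of all tested genes to -0.08, and the calls from 998 up and 794 down to 662 and 1124. The median of the set was then -0.012, and 5 genes of the further list were downregulated. TPM moved the median of all tested genes to -0.19 and gave 2770 DE genes (383 up, 2387 down). The median of the set was then -0.13 and the further list held 2 upregulated and 13 downregulated genes. Under both scalings *ISG20* lost its call and *IFITM3* gained one, and relative to all tested genes the median of the set stayed at 0.06. Without the intensity trend there were 847 DE genes, with 1 upregulated (*IRF1*) in the set and 1 downregulated in the further list, while *NLRC5* gained a call and *HLA-B*, *OAS3*, and *ISG20* lost theirs (adjusted p = 0.0614, 0.0596, and 0.0668 in limma). By voom 2814 genes were DE genes, with 5 downregulated in the set and 9 in the further list.

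Log2 fold changes that changed sign were all of genes without a call. These were 0.0083 for *B2M* with no minimum FPKM and with factors over all genes. Unscaled FPKM gave -0.014 for *OASL*, -0.0092 for *TAP1*, and -0.0048 for *HLA-C*. TPM gave -0.024 for *IRF3*, -0.13 for *OASL*, -0.13 for *TAP1*, -0.027 for *TAP2*, -0.12 for *TAPBP*, and -0.13 for *HLA-C*. When each library was left out in turn, log2 fold changes ranged from -0.26 to 0.038 for *IFIH1*, from -0.18 to 0.010 for *IFIT3*, from -0.00098 to 0.18 for *OASL*, from -0.064 to 0.041 for *B2M*, and from -0.0098 to 0.12 for *HLA-C*. The number of DE genes ranged from 69 without control replicate 2 to 3495 without case replicate 2. In the set, 0 to 9 genes were then upregulated and 0 to 4 downregulated, and in the further list 0 to 8 and 0 to 11. The cause was not tested.

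Replicate numbers did not pair the samples, since deviations of equally numbered libraries correlated at 0.06, 0.10, and -0.05 over 13599 genes. With the replicate number as a block there were 1610 DE genes (848 up, 762 down), and the set held 3 upregulated and 2 downregulated genes, the same 5. *IRF9* and *IFITM1*, at 0 to 5 reads per library, stood below the minimum FPKM.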
